A study of Mus musculus with 12 samples.

Results

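The difference between genotypes in the response to tunicamycin was measured for mature miRNAs in mouse embryonic fibroblasts (cell culture, C57BL/6 background) on 1-colour miRNA arrays. The 12 arrays form 6 groups of 2. The wild-type groups (ATF6bWT) were untreated, treated with 2 ug/mL tunicamycin for 12 h, or treated for 24 h. The groups labelled ATF6bKO lack the stress sensor ATF6b and were untreated or treated in the same way. For each miRNA the difference is the knockout response minus the wild-type response, where a response is the mean of the 12 h and 24 h groups minus the untreated group. It covers 176 of the 611 mouse miRNAs on the array, namely every one that both arrays of 1 or more groups detected. Another 80 were detected on some array without meeting that rule, and 355 were never detected. The design text counts the 2 arrays of a group as separate experiments, and its question is which miRNAs answer to tunicamycin in a way that depends on ATF6b. The labels name no line or embryo behind a genotype, so line and genotype cannot be told apart.

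Tunicamycin blocks the attachment of N-linked sugars to new proteins, so that misfolded proteins build up in the endoplasmic reticulum and the unfolded protein response starts. ATF6b and its relative ATF6a are membrane proteins of that compartment. Under stress they move to the Golgi, where they are cleaved to release a transcription factor. A mature miRNA guides Argonaute to messenger RNAs, mainly through its seed (bases 2 to 8), so miRNAs that share a seed share many targets. A hairpin gives 2 strands, and the less abundant strand carries a star in the array's names.

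The sequences shown are related sets that the comparisons below turn on. In the sequences below capitals mark the seed. RefSeq (GRCm38.p6) held 144 of the 176 tested miRNAs and 46 of the 52 called ones. The old array names were assigned to strands by common usage. The first set is the miR-200 group, which gained most in knockout cells. miR-200c and miR-200b share a seed and differ at 2 bases. Both repress the transcription factors Zeb1 and Zeb2, as miR-141 does.
miR-200c: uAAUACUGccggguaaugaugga
miR-200b: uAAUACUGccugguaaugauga
miR-141: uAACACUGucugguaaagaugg
Mature miR-141 (chr6:124717917-124717938) and miR-200c (chr6:124718324-124718346) span 430 bases of the minus strand together. miR-200b lies at chr4:156055685-156055706, also on the minus strand, within the long non-coding gene Gm13648.

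The second set is miR-31, a regulator of cell migration, shown with its other strand because both were lost in wild-type cells. They come from a single hairpin on the minus strand, at chr4:88910614-88910635 and chr4:88910577-88910599, within the long non-coding gene Gm49890.
miR-31: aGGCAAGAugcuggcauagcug
miR-31*: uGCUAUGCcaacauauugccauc
The third set holds near-identical pairs of which 1 member was called at the settings used for the text. miR-27b and miR-27a differ at 1 base, as do miR-99a and miR-100. miR-27b (chr13:63300760-63300780, plus strand) lies beside Mir24-1 in the gene Aopep, and miR-27a (chr8:84208727-84208747, plus strand) beside Mir24-2. miR-99a lies at chr16:77598940-77598961 and miR-100 at chr9:41531437-41531458, both on the plus strand. Probes for such pairs may capture each other's RNA, which was not tested.
miR-27b: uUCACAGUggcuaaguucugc
miR-27a: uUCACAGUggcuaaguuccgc
miR-99a: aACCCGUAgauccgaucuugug
miR-100: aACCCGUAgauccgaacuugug
The last set compares the seed of miR-20a and miR-106b with that of miR-15b, miR-16 and miR-322. miRNAs of both seeds were higher on treated than on untreated wild-type arrays, but the genotype differences went opposite ways.
miR-20a: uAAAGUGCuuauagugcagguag
miR-106b: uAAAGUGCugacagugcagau
miR-20b: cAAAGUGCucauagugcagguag
miR-15b: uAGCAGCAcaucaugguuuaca
miR-16: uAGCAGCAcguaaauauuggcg
miR-322: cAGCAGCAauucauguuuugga

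Levels are given as a percent of the array's 75th percentile, taken over the 93 miRNAs detected on all 12 arrays. Signals under 1.91% of it were set to that floor, where values have no order. That percentile lay at 412 to 623 intensity units on 9 arrays and at 208 to 257 on 3 treated arrays of the second replicate, wild type at 24 h and knockout at 12 h and 24 h. Each array detected 114 to 189 mouse miRNAs. All untreated arrays are on 1 slide and all treated arrays on another. An additive slide effect shared by the genotypes cancels in the difference between responses, but not in a response itself. Each slide was scanned on 2 dates, and each scan pairs wild-type and knockout arrays that carry 1 replicate number. Of the 18 fibroblast miRNAs 15 to 17 were detected on each array, and miR-21 gave 23.5% to 28.6% of the summed mouse signal. The array holds no probe for ATF6b messenger RNA, so the genotype labels were not checked.

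Knockout cells kept or gained many miRNAs that wild-type cells lost or did not gain. In total 52 of 176 miRNAs (29.5%) differed in response (limma, Benjamini-Hochberg adjusted p under 0.05, described as called). Of these 47 (26.7%) were higher in knockout cells and 5 (2.84%) lower, and the median difference over all 176 was 0.37 on the log2 scale. The lean towards higher depended in part on the scaling. With every difference centred on that median, 21 were higher and 14 lower. With quantile normalization 13 were higher and 3 lower, around a median of 0.17. The number called depended more on the processing, at 5 with scaling over all mouse miRNAs, 7 with normexp background correction, 10 with the software's total gene signal and 7 in the deposited values. Among the 93 miRNAs detected on all 12 arrays 28 (30.1%) were called, 26 of them higher (28%). The 52 went the same way in both replicates, as did 158 of all 176 (89.8%), and at both times. Replicate numbers pair no arrays between the slides, so the split by replicate joins treated and untreated scans arbitrarily. The difference did not change between 12 h and 24 h for any miRNA past the threshold (limma, 0 called or 0%, 3 at an unadjusted p under 0.05). A single call was made there without knockout 12 h replicate 1, with the software's total gene signal and with the deposited values centred per array. Leaving out untreated replicate 1 reduced the number called to 28 (wild type) and 33 (knockout), and 25 of the 52 kept their call whichever single array was left out. With the scan as a block 75 were called, the 52 among them.

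**Figure D1:**
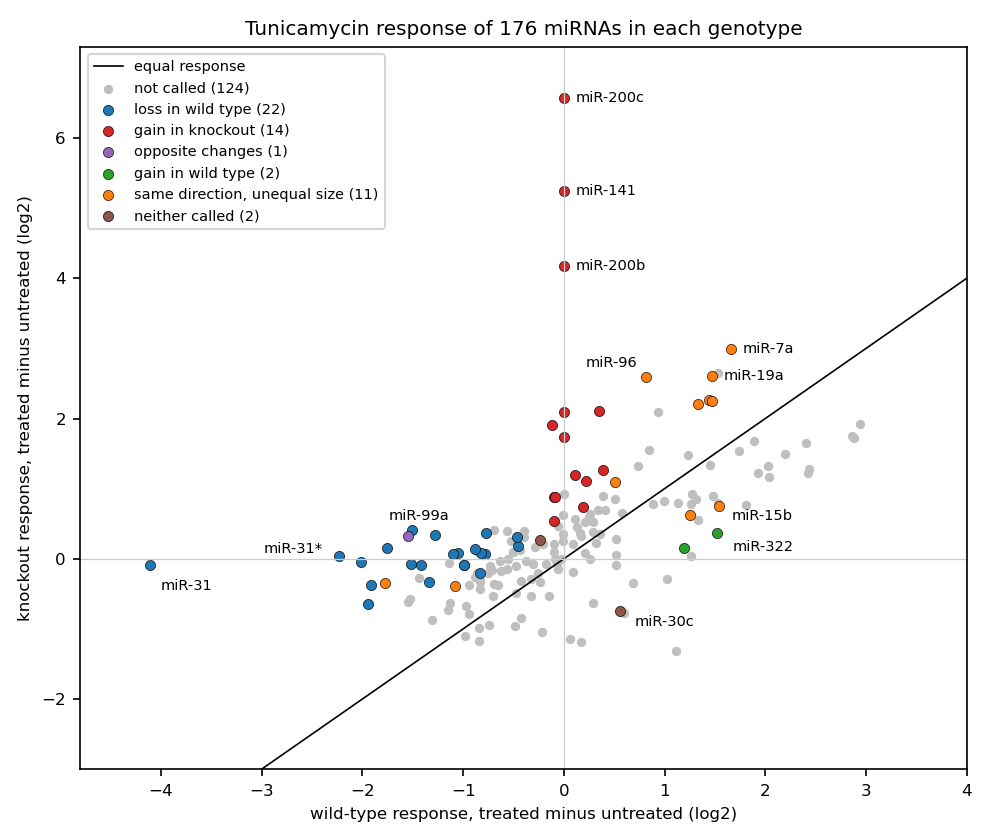
Response to tunicamycin (treated minus untreated, log2, 12 h and 24 h together) of 176 miRNAs in wild type (horizontal axis) and knockout (vertical axis), 1 point per miRNA, coloured by class where the difference was called. The 3 miR-200 group members stand at 0 in wild type, where they were undetected and at the floor, and above 4 in knockout cells. miR-31 stands at -4.10 in wild type, where treated arrays are at the floor, and at -0.09 in knockout cells.

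The called differences were sorted by which genotype changed. Wild-type cells alone fell in 22, and knockout cells alone rose in 14. Both rose or both fell to unequal extent in 11. Wild-type cells alone rose in 2, both changed in opposite directions in 1, and neither response passed alone in 2. No called difference was a fall in knockout cells alone. The classes read the wild-type response, called for 81 of 176 miRNAs (46%; 53 lower, 30.1%, and 28 higher, 15.9%), and the knockout response, called for 56 (31.8%; 45 higher, 25.6%, and 11 lower, 6.25%). The number for knockout cells was 35 without knockout untreated replicate 1 and 96 with the scan as a block. Arrays of a scan deviated together (correlations of 0.48 untreated and 0.76 to 0.91 treated), but the fit took them as independent. Scan effects do not cancel in a response, so its errors can be too small and its calls too many. The block removes the spread between scans, which is part of a response's error, so the 96 is no added support. Since both responses also build the difference, the classes describe it and do not support it. Slide and treatment cannot be told apart within a genotype, so the falls and rises that name the classes may hold a slide effect. Sorted by size instead, with 1.5-fold as the limit for a change, the loss and gain classes stayed within 1.5 times their numbers and no opposite change remained.

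Among the miRNAs lost in wild type, miR-31 had the largest difference. It stood at 35.8% and 30.3% in untreated wild-type cells and at the floor, undetected, on all 4 treated wild-type arrays. In knockout cells it stood at 40.4% and 38.0% untreated, at 42.4% and 34.9% after 12 h and at 42.4% and 28.8% after 24 h. The treated wild-type arrays are thus apart from all 8 others, which overlap. miR-31 fell at least 12.2-fold in wild type and was at least 13.6-fold higher in treated knockout than in treated wild-type cells (fitted difference 4.01 ± 0.24 SE, limma adjusted p = 1.15e-05). Its other strand, miR-31*, stood at 10.4% and 7.73% in untreated wild type and at the floor after treatment. On all 6 knockout arrays it lay between 5.89% and 12.8%, undetected on 1. It fell at least 3.32-fold in wild type, with a fitted difference of 2.28 ± 0.37 (adjusted p = 0.0051). The floored groups show no spread, so the errors and p-values of both strands can be too small. miR-31 was called under all 26 alternatives compared for its call, miR-31* under 21.

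The cluster of miR-23b, miR-27b and miR-24-1, which lies within the gene Aopep, fell in wild type, while none of its mature strands had a called response in knockout cells. miR-23b, a miRNA abundant in fibroblasts, stood at 119% and 100% untreated, 37.1% and 26.9% at 12 h and 35.5% and 30.6% at 24 h in wild type. In knockout cells it stood at 139% and 129%, then 150% and 140%, then 167.8% and 141.1%, so that no treated knockout array came near a treated wild-type one. The difference was 1.91 ± 0.23 (limma adjusted p = 0.000921). miR-27b went from 29.2% and 22.5% to between 8.01% and 10.8% on the treated wild-type arrays, and stayed between 21.1% and 33.1% on the 6 knockout arrays. Its difference of 1.33 ± 0.32 (adjusted p = 0.0179) lost the call without wild type untreated replicate 1 (1.14) and without knockout untreated replicate 2 (1.16). The star strand specific to that hairpin, miR-24-1*, fell from 5.49% and 5.41% to the floor in wild type, undetected. It stood at 4.76% to 8.83% in knockout cells, with a difference of 1.92 ± 0.29 (adjusted p = 0.00356). Its call was lost with the floor doubled, among others, and held under 22 of 26 alternatives.

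In the paralogous cluster on chromosome 8, miR-23a and miR-27a gave smaller values than miR-23b and miR-27b. miR-23a differed by 0.26 ± 0.26 and miR-27a by 0.21 ± 0.17, and neither was called. Both turned lower with quantile normalization, with centring and in the deposited values. miR-27a lay between 164% and 248% on all 12 arrays, with the treated arrays of both genotypes overlapping. The contrast between the paralogs was not tested. miR-24, the mature strand that both clusters encode, differed by 1.14 ± 0.29 (adjusted p = 0.0227), a call lost when the wild-type untreated replicate 1 (0.94), the knockout untreated replicate 2 (1.00) or the knockout 12 h replicate 1 (1.09) was left out. miR-24-2*, the strand specific to chromosome 8, was close to the floor on most arrays. Its fitted difference of 1.62 ± 0.43 rests on the floor in treated wild type, and it was lost without any 1 of 5 arrays. Of 5 tested members of this family list (miR-23a, miR-23b, miR-24, miR-27a and miR-27b) 3 were called higher, and the median difference of the 5 was 1.14 against 0.37 over all miRNAs. It stayed above 0 under each of the 3 other scalings, which called 1 member with centring and 0 with the other 2.

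Several miRNAs of the imprinted Dlk1-Dio3 clusters, which are expressed from the maternal chromosome, fell in wild type and less or not in knockout cells. miR-431 went from 23.7% and 21.0% to 7.49%, 5.93%, 6.38% and 4.39% in wild type. Knockout cells held it at 18.8% and 17.2% untreated and at 17.0%, 15.2%, 14.4% and 10.0% treated. All 4 treated knockout values lay above all 4 treated wild-type values, and the difference was 1.54 ± 0.29 (limma adjusted p = 0.0077). miR-434-3p, which like miR-431 is antisense to Rtl1, differed by 1.44 ± 0.29 and miR-382 by 0.90 ± 0.17. miR-410, at the far end of the cluster, fell in both genotypes. It went from 36.5% and 35.5% to 9.04% to 12.5% in wild type, and from 35.9% and 34.9% to 24.9% to 29.6% in knockout cells, a difference of 1.43 ± 0.15 (adjusted p = 0.000482). miR-495, at 0.90, lost its call without wild type untreated replicate 1 (0.80). miR-433, miR-329 and miR-369-5p were also called, at 1.30, 1.01 and 0.70. miR-433 lost its call without any 1 of 9 arrays and miR-329 without any 1 of 10. miR-369-5p lost it without wild type untreated replicate 1 (0.65) or knockout untreated replicate 2 (0.52). Of 28 tested members of the 56 listed, 8 were called higher and 0 lower, a share close to the 26.7% of all miRNAs, with a median difference of 0.58 against 0.37. The median was 0.21 to 0.42 under the other scalings and -0.28 in the unscaled deposited values. The count became 3 after centring, 1 after quantile normalization and 0 when every mouse miRNA set the scale. In wild type 20 of the 28 fell (30.1% of all miRNAs did), and in knockout cells 3 (6.25% of all).

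The remaining losses in wild type came from several families. miR-143, a marker of smooth muscle and fibroblasts, stood at 72.9% and 48.7% untreated and at 17.6%, 14.7%, 17.8% and 10.3% treated in wild type. In knockout cells it stood at 92.2% and 73.4% untreated and at 102%, 82.0%, 90.5% and 53.3% treated, again with no overlap between treated genotypes. Its difference was 1.97 ± 0.44 (limma adjusted p = 0.0139), lost without wild type untreated replicate 1 (1.68) or knockout untreated replicate 2 (1.80). miR-34a, a target of p53, went from 124% and 110% to between 60.6% and 73.8% in wild type and stayed between 95.4% and 112% in knockout cells. It differed by 0.86 ± 0.15 (adjusted p = 0.00573). miR-28, in the gene Lpp, differed by 0.91 ± 0.16 and miR-103, in introns of pantothenate kinase genes, by 1.15 ± 0.22, both with calls that held whichever single array was left out. Of 26 alternatives, 21 called miR-34a, 20 called miR-28 and 20 called miR-103. Each lost its call with scaling over all mouse miRNAs, with the software's total gene signal and in the deposited values, centred or not. miR-152 (1.17), miR-324-5p (1.02), miR-22 (0.78), miR-155 (0.63) and miR-199a-3p (0.63) were called with less support, and each lost the call without 1 or more single arrays. The untreated replicates 1 of wild type or knockout were among those arrays for each. In the fibroblast list, 7 of 17 tested members were called higher (26.7% of all miRNAs were), with a median of 0.50 against 0.37 (-0.25 in the unscaled deposited values). The 7 include miR-10a, a gain in knockout cells described further on. That list shares miR-31, miR-143 and miR-24 with the groups above. It had 2 calls with centring and 1 each with quantile normalization and with every mouse miRNA setting the scale.

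**Figure D2:**
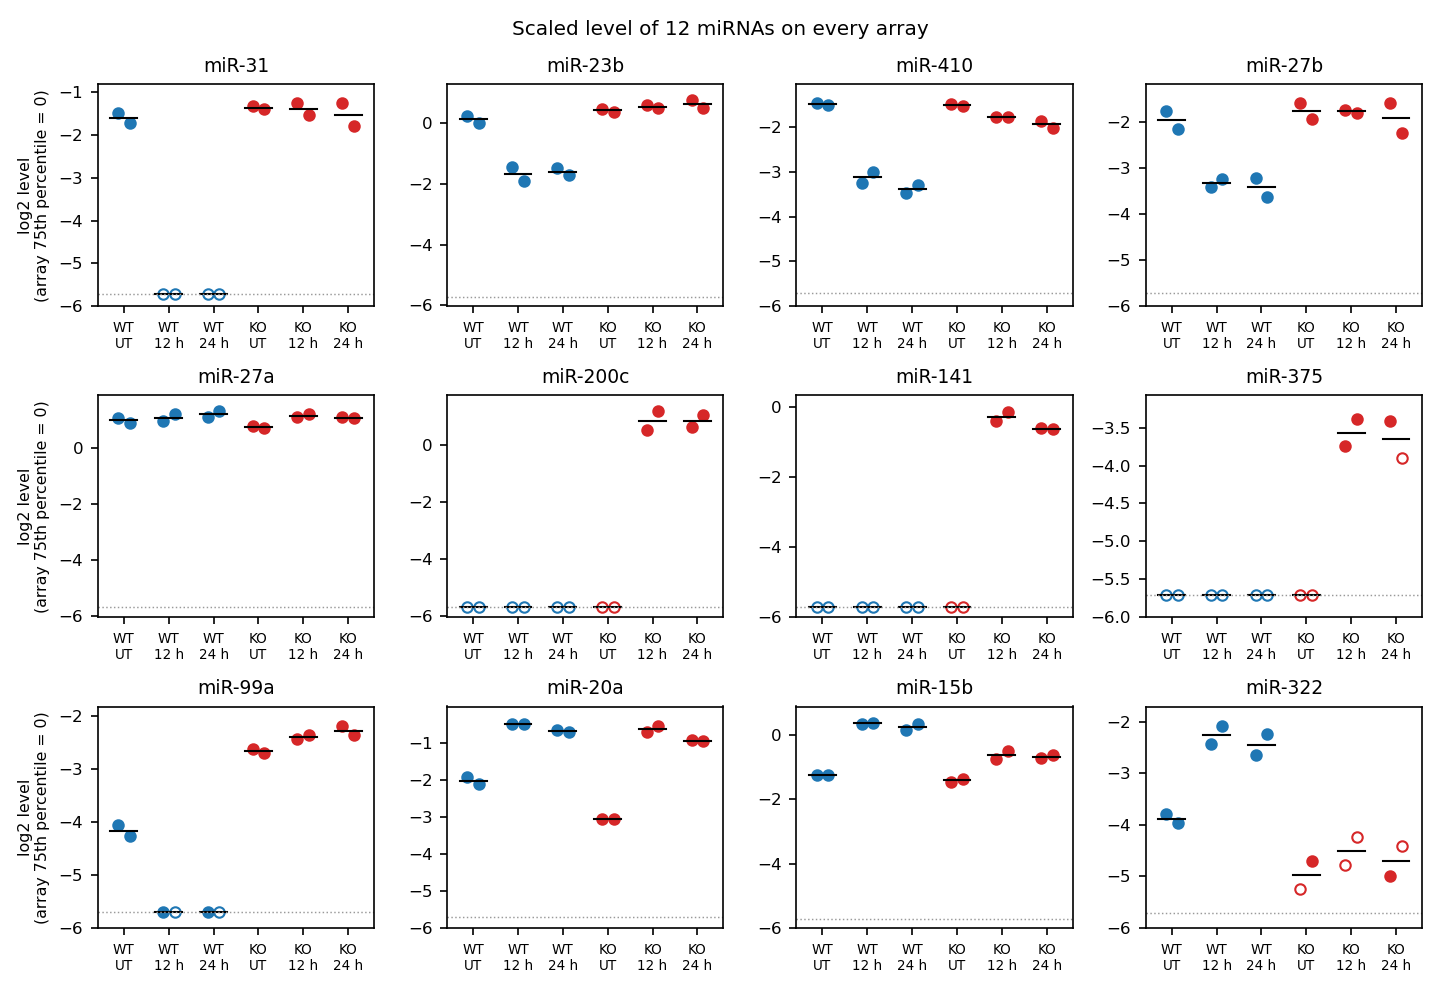
Log2 level of 12 miRNAs on every array, relative to the array's 75th percentile (0 on the vertical axis), by group of 2 arrays (WT, wild type, blue; KO, knockout, red; UT, untreated). Filled points were detected, open points were not, bars are group means and the dotted line is the floor at -5.71. miR-31 is at the floor in treated wild type, and miR-200c, miR-141 and miR-375 are at the floor in all groups other than treated knockout.

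Among the miRNAs gained in knockout cells, miR-200c, miR-141 and miR-200b were detected in treated knockout cells alone. miR-200c stood at 144% and 230% after 12 h and at 156% and 211% after 24 h in knockout cells, and was undetected, at the floor, on the other 8 arrays. It gained at least 73.8-fold over untreated knockout cells and was at least 67.1-fold above treated wild-type cells (fitted difference 6.57 ± 0.28, limma adjusted p = 1.68e-06). miR-141 stood at 75.7%, 89.6%, 65.2% and 63.9%, at least 29.7-fold above untreated knockout cells. miR-200b stood at 31.0%, 45.7%, 27.7% and 35.9%, at least 14.0-fold above them. The fitted differences were 5.25 ± 0.14 and 4.17 ± 0.24. miR-375, a miRNA of endocrine and epithelial cells, reached 7.498%, 9.55%, 9.43% and 6.70% in treated knockout cells, undetected on the last, and lay at the floor on the other 8. It gained at least 3.33-fold. miR-200c and miR-141 were called under all 26 alternatives, miR-200b under all but normexp background correction, and miR-375 under 22. These 4 passed the detection filter only through treated knockout cells, so their number is no support, and floored groups show no spread, so the errors and p-values can be too small.

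The epithelial list has 11 entries, all on the array, and 6 were tested. The summed level of the 11 was 6.22% to 7.06% in untreated wild type, 8.26% to 13.1% in treated wild type and 2.40% to 3.96% in untreated knockout cells. On the 4 treated knockout arrays it was 279% to 404%. Of the 11 entries 0 were detected on the untreated knockout arrays and 4 to 7 on each treated knockout array. miR-200a was detected on 2 treated knockout arrays and no other, and miR-429, miR-205, miR-203 and miR-182 were detected on none of the 12. Over the same arrays the summed fibroblast list stood at 6129% to 7166% in treated knockout, 5744% to 5938% in treated wild type, 5586% to 6165% in untreated knockout and 6047% to 7217% in untreated wild type. Whether cells of another type took part in the change of the epithelial list was not tested. More cells of a type and more RNA per cell cannot be told apart in bulk RNA. Markers of neurons, of endothelium and liver, and of pluripotent cells had 0 called members, and 2, 0 and 0 of them were tested. The summed level of the 14 pluripotent markers was 8.63% to 9.55% in untreated and 8.65% to 18.8% in treated wild type, 6.67% to 42.9% in untreated and 13.5% to 22.1% in treated knockout cells, with at most 2 detected on an array. The 7 muscle markers summed to 2.82% to 8.97% on wild-type and 3.53% to 8.35% on knockout arrays. Of these miR-206 alone was tested, and it rose by 1.33 in wild type (limma adjusted p = 0.018) with a difference of -0.77 that was not called (adjusted p = 0.284). Of 9 blood markers miR-155 alone was detected, and their summed level was 18.1% to 18.8% in untreated and 10.5% to 15.96% in treated wild type, against 30.6% to 36.8% in untreated and 32.5% to 39.996% in treated knockout cells.

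The linked pair miR-96 and miR-183, miRNAs of sensory and epithelial cells from a single transcript, took part with smaller values. miR-96 was detected in untreated wild type at 3.83% and 4.004% and undetected at the floor in untreated knockout cells. It reached 11.4%, 14.3%, 9.49% and 11.7% in treated knockout against 5.10%, 8.49%, 6.49% and 7.94% in treated wild type, so that the treated genotypes did not overlap. It gained at least 4.71-fold in knockout cells and rose by 0.81 in wild type (fitted difference 1.79 ± 0.31, limma adjusted p = 0.00573). The call of miR-96 was lost with the floor doubled, among others, and held under 20 of 26 alternatives. miR-183 was detected on 1 untreated and 3 treated wild-type arrays, and on 0 untreated and 2 treated knockout arrays. It gained at least 1.88-fold in knockout cells, with a fitted difference of 0.88 ± 0.24. That call was lost without any 1 of 5 arrays and with the floor doubled.

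Other gains in knockout cells came from unrelated families. miR-29b*, from the hairpin of the matrix regulator miR-29b-1, stood at 7.24% and 7.002% in untreated wild type and at 5.44% to 7.44% after treatment. It stood at 2.15% and 2.28% in untreated knockout cells, where treatment brought it to 7.34%, 11.3%, 5.44% and 10.6%. The difference of 2.03 ± 0.39 (limma adjusted p = 0.00791) goes with a gap of 1.75 and 1.62 in the untreated scans, knockout lower. The untreated knockout values are next to the floor. The call was lost with the floor doubled, among others, and held under 19 of 26 alternatives. The other strand, miR-29b, differed by 0.50 ± 0.27 and was not called. miR-10a, encoded among the Hoxb genes, likewise started lower in knockout cells, at 15.9% and 14.1% against 25.2% and 22.9%. It ended at 30.2% to 36.2% against 25.4% to 30.4% (difference 0.89 ± 0.16, adjusted p = 0.00667). miR-689 rose to 20.1%, 20.7%, 41.4% and 49.1% in knockout cells from 13.3% and 13.1%. In wild type it stood at 11.3% and 9.99% untreated, 5.91% and 6.89% at 12 h and 18.4% and 23.2% at 24 h, so its difference of 1.09 ± 0.19 sits on unlike values at the 2 times. miR-1224, an intronic miRNA of Vwa5b2, had the same shape, with 1.36 at 12 h and 0.60 at 24 h, and the 24 h value was not called alone. Its call was lost without wild type untreated replicate 1 or either untreated knockout array, at 0.91 to 1.00. miR-320 (1.75), miR-590-5p (1.74), miR-98 (0.97), miR-107 (0.64) and let-7g (0.56) completed the 14. miR-320 and miR-590-5p lay at or near the floor without treatment. miR-320 lost its call without untreated replicate 1 of wild type (1.56) or knockout (1.75).

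let-7g and miR-98 were the called members of the let-7 family, which limits proliferation and shares a seed. Over its 9 tested members 2 were called higher (26.7% of all miRNAs were), the median was 0.35 against 0.37 over all, and that median became -0.02 with centring and -0.59 in the unscaled deposited values. The let-7 differences ran from -0.24 for let-7c to 0.97 for miR-98, and each of these sequences has a relative 1 or 2 bases away in the family. The calls of let-7g and miR-98 were both lost without either untreated knockout array or wild type untreated replicate 1, at 0.48 to 0.58 and 0.88 to 1.03. miR-107 differs from miR-103 at 1 base and shares its seed. Both were called higher, miR-103 for a loss in wild type and miR-107 for a gain in knockout cells. Treated knockout arrays held 33.1% to 39.2% miR-107 against 19.9% to 27.9% in treated wild type. The call of miR-107 was lost without any 1 of 8 arrays.

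For opposite changes, miR-99a, a repressor of mTOR, was the only miRNA that fell in wild type and rose in knockout cells. It stood at 6.01% and 5.18% in untreated wild type and at the floor on all 4 treated wild-type arrays, where 2 of the 4 were detected. In knockout cells it stood at 16.2% and 15.4% untreated, 18.4% and 19.6% at 12 h and 21.9% and 19.6% at 24 h. Knockout arrays thus lay above wild-type arrays before treatment, by 1.43 and 1.57 within the 2 scans on the log2 scale, and by 3.27 to 3.52 after it. The difference was 1.87 ± 0.14 (limma adjusted p = 6.31e-05), with a floor that bounds the wild-type fall. The rise in knockout cells was 0.33 ± 0.10 (limma adjusted p = 0.045), close to the threshold. The floored wild-type groups show no spread, so these errors and p-values can be too small, and the call of an opposite change rests on them. With each of the 3 other scalings the class of opposite changes held 0 miRNAs. miR-100, 1 base away, differed by 0.46 ± 0.16 (adjusted p = 0.0665), was called with the floor doubled, with the random scan block, with the replicate block and without knockout 24 h replicate 2 (0.53), and fell by 0.62 in wild type, with 15.5% to 17.7% on treated wild-type arrays against 17.0% to 20.6% on treated knockout ones. The 3 tested members that share the seed ACCCGUA, miR-99a, miR-99b and miR-100, had a median of 0.46.

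Changes in the same direction but of unequal size came next. Members of the miR-17 clusters, known drivers of proliferation, rose in both genotypes, and part of them rose further in knockout cells from a lower start. miR-20a went from 26.6% and 23.1% to 71.9%, 72.2%, 64.1% and 62.0% in wild type, and from 12.1% and 12.2% to 61.9%, 68.9%, 53.1% and 51.9% in knockout cells. Knockout cells were below wild type by 1.13 and 0.92 in the 2 untreated scans on the log2 scale and by 0.07 to 0.27 in the treated ones. The difference of 0.83 ± 0.14 (limma adjusted p = 0.00573) goes with a gap that narrowed. miR-19a (1.13 ± 0.23) narrowed a gap in the same way, from -1.33 and -0.90 to between -0.20 and 0.17. miR-106b (0.88 ± 0.21) and miR-20b (0.78 ± 0.25) did so too. miR-106b lost its call without untreated replicate 1 of wild type (0.74) or knockout (0.80), and miR-20b without any 1 of 10 arrays. miR-20b also changed sign when the software's total signal was used. All 9 tested members rose in each genotype, 7 were called lower in untreated knockout cells, and 4 were called higher in the difference, where 26.7% of all miRNAs were (median 0.78; 0.41, 0.69 and 0.60 under the other scalings and -0.01 in the unscaled deposited values). Scaling over all mouse miRNAs and quantile normalization called 0 of the 9, and centring called 0 higher and 2 lower, miR-25 and miR-92a. The untreated arrays enter both the gap and the difference, so these are not independent. In untreated cells 20 of 176 were called between genotypes (11.4%; 17 lower in knockout cells, 9.66%), a number reduced to 7, 10 and 12 by leaving out replicate 1 of wild type, replicate 1 of knockout and replicate 2 of knockout, and 33 with the scan as a block.

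Other members of the same hairpin clusters did not pass at the settings used for the text, and several passed at others. miR-25, in the transcript of miR-106b and miR-93 within Mcm7, differed by -0.49 ± 0.17, and miR-92a, beside miR-19a, by -0.21 ± 0.16. With centring both were called lower, at -0.86 and -0.58. miR-25 was also called lower with the floor doubled, with the scan as a block, fixed or random, with the replicate block and without knockout 24 h replicate 1 (-0.56), but it changed sign with normexp and in the software's total and deposited values. miR-93 (1.15 ± 0.43) and miR-18a (0.70 ± 0.29) were called higher with each of those 3 blocks. They were also called without knockout 24 h replicate 2 (1.33 and 0.84), and miR-93 without wild type 24 h replicate 1 (1.36). miR-19b (0.25 ± 0.17) was called under none of the alternatives. By seed, miR-106b, miR-20a and miR-20b of the 4 tested miRNAs with AAAGUGC were called higher, and the median of the 4 was 0.85. The 2 miRNAs with AUUGCAC, miR-25 and miR-92a, had a median of -0.35. These shared seeds were read from few members that also share clusters. Also in this class miR-7a, a regulator of growth factor signalling, was at the floor in untreated knockout cells and gained at least 6.17-fold there. In wild type it went from 4.21% and 3.61% to 15.3%, 14.7%, 9.92% and 10.3% (fitted difference 1.33 ± 0.19, lost with the floor doubled). miR-130b rose by 0.51 in wild type and 1.09 in knockout cells, a difference of 0.58 that was lost without any 1 of 9 arrays.

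Of the 5 differences lower in knockout cells, 3 belong to the miR-15 family, which shares the seed AGCAGCA and restrains the cell cycle. miR-15b went from 42.7% and 42.6% to 127%, 131%, 112% and 127% in wild type, and from 36.8% and 39.3% to 59.7%, 71.2%, 61.6% and 64.6% in knockout cells. Untreated genotypes were 0.21 and 0.12 apart within scans on the log2 scale, and treated ones 0.87 to 1.09, with knockout cells lower in each. The difference was -0.79 ± 0.15 (limma adjusted p = 0.00793) and held whichever single array was left out. miR-16, from the same transcript in Smc4 and from a second locus, went from 23.2% and 21.1% to between 46.9% and 62.4% in wild type. Knockout cells went from 22.5% and 22.8% to between 30.1% and 38.5% (difference -0.62 ± 0.16, adjusted p = 0.0231). It lost the call without any 1 of 5 arrays, at -0.56 to -0.63. miR-322 rose in wild type from 7.198% and 6.42% to 18.4%, 23.6%, 15.9% and 21.2%. In knockout cells it was detected on 2 of 6 arrays, at 2.64% to 5.30% over all 6. Its difference of -1.16 ± 0.37 (adjusted p = 0.0489) lost the call without any 1 of 9 arrays. Of the 4 tested family members 3 were called lower, and miR-15a, at -0.35 ± 0.15, was not. Over all miRNAs 2.84% were called lower. The number became 4 with centring and 2 with quantile normalization, and 0 with normexp, with the software's total signal, in the deposited values (centred or not) and when every mouse miRNA set the scale. With the scan as a random block miR-15a was called too. The family's median was -0.71 against 0.37 over all miRNAs, and it stayed below 0 under each of the 3 other scalings, with normexp and in the deposited values.

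The other 2 of those 5 were single miRNAs. miR-218, in Slit2 and Slit3, was detected on 3 treated wild-type arrays at 3.63% to 4.89% and undetected at 5.15% on the fourth. It was undetected elsewhere, and reached at least 2.29-fold over untreated wild type, with a fitted difference of -1.04 ± 0.29. It passed the detection filter only through wild type at 12 h, so its call is no support for a lower count. In all 6 of the 52 passed through a single group, miR-375 and miR-590-5p through knockout at 12 h, miR-183 and miR-218 through wild type at 12 h, and miR-24-2* and miR-30e* through untreated wild type. miR-30c stood at 13.9%, 12.9%, 17.7% and 16.2% in treated wild type against 4.24%, 4.05%, 8.16% and 6.63% in treated knockout cells, from 13.01% and 8.04% and from 11.8% and 7.29% untreated. Its difference was -1.31 ± 0.35 (limma adjusted p = 0.0258), although neither response passed alone. Both turned higher with normexp, and both lost the call without single arrays, miR-218 without any 1 of 7 and miR-30c without any 1 of 4. miR-30e*, the other miRNA with no called response, lay within 2.95% on every array, next to the floor. Its difference of 0.51 became 0 when the floor was doubled.

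**Figure D3:**
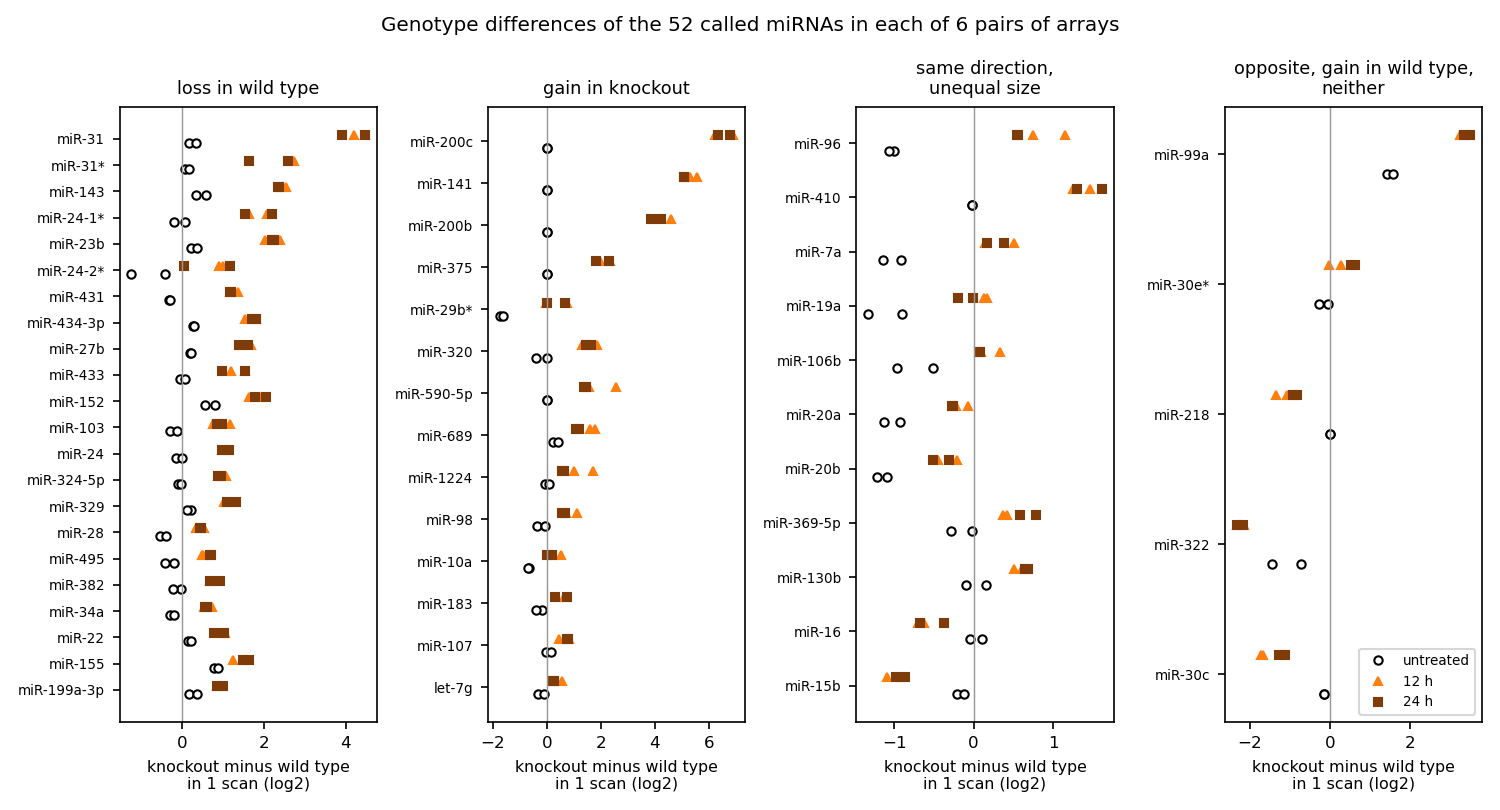
Knockout minus wild type within each scan (log2) for the 52 called miRNAs, by class. Open circles are the 2 untreated pairs, triangles the 2 pairs at 12 h and squares the 2 pairs at 24 h. In each of the 52, all 4 treated pairs lie on 1 side of both untreated pairs.

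In all 52 called miRNAs the 4 treated genotype differences lay beyond both untreated ones, but so they did in 122 of all 176 (69.3%) and in 69 of the 93 detected on all 12 arrays (74.2%). Genotypes were further apart after treatment than before it in 42 of the 52, against 120 of all 176 (68.2%), and closer in 10. Untreated knockout and wild-type cells were called different for 10 of the 52, against 20 of 176 (11.4%). Treated cells were called different for 45 of the 52, against 83 of 176 overall (47.2%), of which 62 were higher in knockout cells (35.2%). miR-29b*, miR-10a, miR-20a, miR-19a, miR-20b and miR-106b were among those called lower in untreated knockout cells.

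Among 24 miRNAs listed as reported to act in the unfolded protein response 23 were on the array and 14 tested. Of these 5 were called higher, miR-96, miR-7a, miR-689, miR-106b and miR-34a, and miR-322 lower, where 26.7% and 2.84% of all miRNAs were, with a median of 0.61 against 0.37. With centring 3 were higher and 2 lower, and with quantile normalization 3 were higher. None of the 14 was called when every mouse miRNA set the scale (0 higher and 0 lower). Levels of miR-199a-5p and miR-214, described as answering to stress sensors in other cells, fell in both genotypes, and their differences of 0.50 and 0.15 were not called. A list made for the repeat-rich intronic cluster of Sfmbt2 had 0 of 8 tested members called (limma, 1 at an unadjusted p under 0.05) and a median of -0.67, which became 0.03 with normexp. It also holds both strands of miR-574, which lie on chromosome 5 outside that cluster, and the other 6 had a median of -0.60. Across miRNAs, GC content of the mature sequence and the difference gave a Pearson r of -0.03 and a Spearman rho of -0.01 over 144 miRNAs. Mean level and the difference gave an r of -0.06 and a rho of -0.11 over the 93 detected on all arrays. Both are descriptions across miRNAs of the same arrays, which are not independent replicates.

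**Figure D4:**
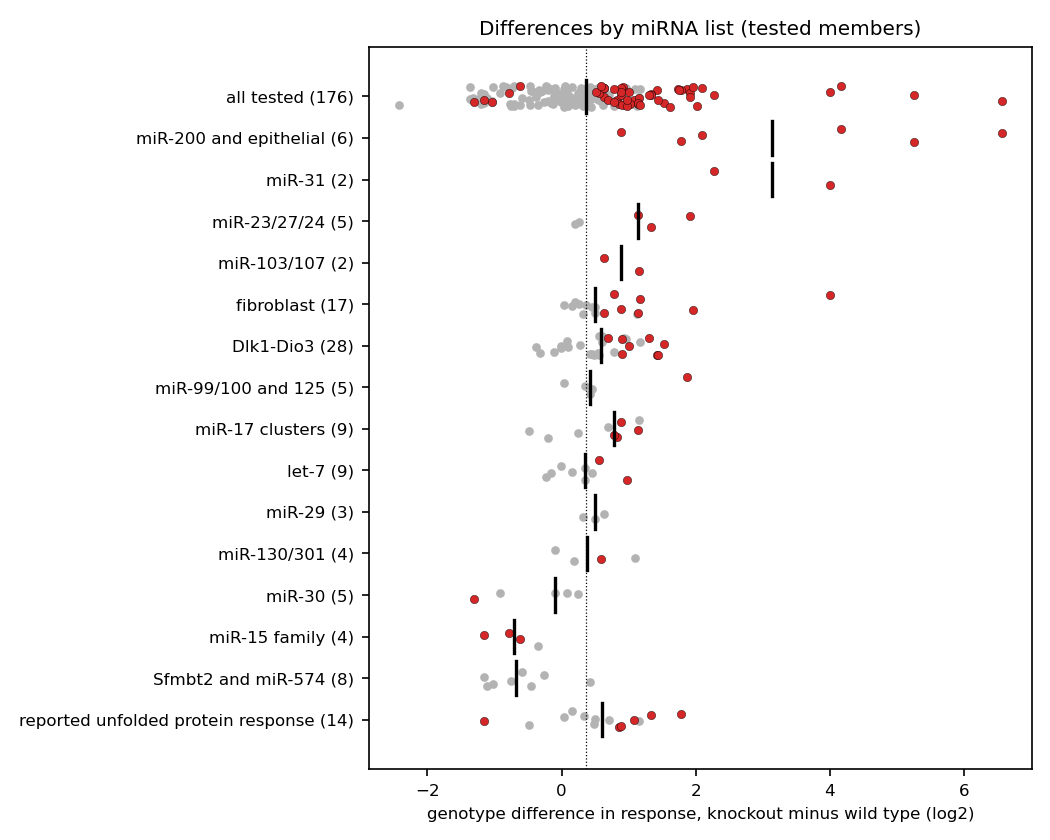
Genotype difference in response (knockout minus wild type, log2) of tested miRNAs by list, with the number tested in brackets. Red points were called, grey points were not, black bars are medians and the dotted line is the median of all 176 (0.37). Of the lists drawn, the epithelial and miR-31 lists have medians furthest above that line, and the miR-15 family and the list of Sfmbt2 and miR-574 furthest below it. In the epithelial list 6 of 11 entries were tested. Of these, miR-200c, miR-141, miR-200b and miR-375 passed the detection filter only through treated knockout cells, so its high median is no support. The miR-31 list holds the 2 strands of a single hairpin.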

How the data were processed

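Per the file headers and the submitters' processing notes, arrays were extracted with Agilent Feature Extraction 10.7.1.1. The authors deposited background-subtracted intensity per spot on a linear scale, which can be negative, and a table of log2 values. In that table a value matches log2 of TotalGeneSignal, the per-miRNA total from the software, within 1.18e-06, is blank where a miRNA was undetected, and is not scaled between arrays. Spots of a probe were averaged without outlier spots, probes were summed per miRNA, sums were expressed relative to the 75th percentile of 93 miRNAs on that array, with a floor at 1.91% of it, and log2 was taken. Tests used limma 3.58.1 under R 4.3.3 (6 group means, 6 residual and 1.65 prior degrees of freedom, two-sided, Benjamini-Hochberg over 176 miRNAs, threshold 0.05). The fit was tested on simulated data with independent noise on each array, which held no scan effect and applied no floor. Errors are standard errors. A bound ("at least") sets the brighter group's mean against, per array of the undetected group, the highest of the floor, the lowest detected signal and the miRNA's own. The number of arrays limits precision. P-values measure the spread between these arrays.

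Deviations from group means correlated between same-numbered arrays of a slide at 0.48 (untreated) and 0.76 to 0.91 (treated), and between slides at -0.38 to -0.05, so numbers mark the scan within a slide and pair no arrays between slides. Genotype also follows slide row, and an additive row effect alike on both slides cancels in the difference. normexp was run on median signal less median background, as the mean signal was not used here, and fitted without outlier spots.

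Members and lists were chosen with earlier results of these data known. Named miRNAs were the called ones with the largest differences in each class (up to 8), their other strands and list members, and called ones detected on all 12 arrays. Beyond that rule, the remaining called miRNAs and 10 uncalled relatives were named after their values were seen. Alternatives were other scalings, background, summaries, floors, filters, blocks, single times and each array left out. Added after seeing the data were 2: the 3 low-signal arrays left out, and the deposited values centred per array.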

Additional observations from a re-analysis of the deposited data

Results flagged for a closer look

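Each called difference is a contrast in which the responses of the genotypes differed by the interaction test itself (limma, adjusted p under 0.05), and the values are knockout minus wild type on the log2 scale. Gains in knockout cells were 2.10 for miR-375, 6.57 for miR-200c, 4.17 for miR-200b, 5.25 for miR-141, 2.03 for miR-29b*, 1.75 for miR-320, 1.74 for miR-590-5p, 1.09 for miR-689, 0.98 for miR-1224, 0.97 for miR-98, 0.89 for miR-10a, 0.88 for miR-183, 0.64 for miR-107 and 0.56 for let-7g. Losses in wild type were 4.01 for miR-31, 2.28 for miR-31*, 1.97 for miR-143, 1.92 for miR-24-1*, 1.91 for miR-23b, 1.62 for miR-24-2*, 1.54 for miR-431, 1.44 for miR-434-3p, 1.33 for miR-27b, 1.30 for miR-433, 1.17 for miR-152, 1.15 for miR-103, 1.14 for miR-24, 1.02 for miR-324-5p, 1.01 for miR-329, 0.91 for miR-28, 0.90 for miR-495, 0.90 for miR-382, 0.86 for miR-34a, 0.78 for miR-22, 0.63 for miR-155 and 0.63 for miR-199a-3p. Changes in the same direction differed by 1.79 for miR-96, 1.43 for miR-410, 1.33 for miR-7a, 1.13 for miR-19a, 0.88 for miR-106b, 0.83 for miR-20a, 0.78 for miR-20b, 0.70 for miR-369-5p, 0.58 for miR-130b, -0.62 for miR-16 and -0.79 for miR-15b. The remaining values were 1.87 for miR-99a, -1.16 for miR-322, -1.04 for miR-218, -1.31 for miR-30c and 0.51 for miR-30e*.

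Among 91 groups of the 4 treated arrays of a genotype, taken over the called miRNAs, 8 held an array far from the other 3, where chance flags about 1 in 20. Groups with more than 1 value at the floor were not tested. On the log2 scale, wild type 24 h replicate 2 stood at -3.27 for miR-98 (others -3.67 to -3.62) and at -3.42 for miR-130b (others -3.17 to -3.13). Knockout 12 h replicate 2 stood at -3.16 for miR-590-5p (others -4.33 to -4.15). Knockout 24 h replicate 2 was the low array for 5 miRNAs. It stood at -4.06 for miR-320 (others -3.50 to -3.38), at -4.09 for miR-31* (others -3.11 to -2.96) and at -5.66 for miR-24-2* (others -4.72 to -4.53). It stood at -1.72 for miR-103 (others -1.44 to -1.43) and at -3.24 for miR-382 (others -2.96 to -2.93). These are the 3 arrays with a low 75th percentile, and the part of low signal in the values was not tested. With these 3 arrays left out 41 miRNAs were called, 36 of them among the 52.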

How the results depend on the processing

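Of 52 called differences, 47 were higher and 5 lower, around a median of 0.37. Scaling over all mouse miRNAs called 5, all higher and 0 lower (20 at an unadjusted p under 0.05 by limma), around 0.18. Responses called were 15 in each genotype, with 0 untreated and 26 treated genotype differences, and classes of 1 loss, 4 gains and 0 in the others. Quantile normalization called 16 (13 higher, 3 lower) around 0.17, 32 knockout responses, 11 untreated differences, 5 losses, 5 gains, 0 opposite and 3 in the same direction. Centring gave 21 higher and 14 lower around 0, with 10 losses, 8 gains, 0 opposite and 9 in the remaining classes. normexp called 7, all higher and 0 lower (31 at an unadjusted p under 0.05), with 22 wild-type and 31 knockout responses, 1 untreated and 41 treated differences, 4 losses, 3 gains and 0 in the other classes. The software's total signal called 10 (9 higher, 1 lower), 31 wild-type and 11 knockout responses, 3 untreated and 31 treated differences and 1 change between times. Its classes were 5, 3, 0, 1 and 1 (losses, gains, opposite, same direction, remaining). The deposited values called 7 (6 higher, 1 lower) around -0.35, 4 wild-type and 4 knockout responses, and 1 untreated and 12 treated differences. Their classes were 3, 3, 0, 0 and 1. Centred per array, they called 8 (7 higher, 1 lower), 30 wild-type and 11 knockout responses, 1 untreated and 30 treated differences and 1 change between times, with classes of 4, 3, 0, 0 and 1. The cause of these changes was not tested. Halving the floor left 3 lower, 0 opposite and 1 remaining. Detection on all 12 arrays, which tests 93, called 30 (28 higher, 2 lower), 51 wild-type responses and 55 treated differences, with 14 losses, 7 gains, 0 opposite and 0 remaining. Detection on at least 1 array moved the median to 0.22.

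With the scan as a block 75 were called, 11 lower, with 96 knockout responses, 33 untreated differences, 4 opposite and 24 same-direction changes. As a random block it called 79, 11 lower, with 39 untreated differences, 36 losses, 0 opposite and 14 remaining. With the replicate number as a block 78 were called, 10 lower, the 52 among them, with 37 untreated differences, 4 opposite, 21 same-direction and 7 remaining. The replicate block lost no call of the 52, but it assumes an effect shared by same-numbered arrays of both slides, which the correlations between slides do not show. At 12 h alone 43 were called, 7 in the same direction. At 24 h alone 36 were called, 1 lower, with 9 gains and 0 remaining. Classes by size gave 0 opposite and 7 remaining. Without the 3 low-signal arrays 2 were lower, with 37 knockout responses, 0 opposite, 5 same-direction and 2 remaining. Leaving out each array in turn gave 28 to 57 calls, 25 to 52 higher and 1 to 8 lower, a median of 0.27 to 0.49, 54 to 89 wild-type and 35 to 59 knockout responses, 7 to 19 untreated and 75 to 90 treated differences and 0 to 1 changes between times. The classes held 11 to 27 losses, 8 to 16 gains, 0 to 2 opposite, 5 to 11 same-direction and 0 to 6 remaining.

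Signs turned in these cases. Quantile normalization gave -0.10 for miR-23a and -0.15 for miR-27a, and centring gave -0.12 for miR-19b, -0.11 for miR-23a and -0.16 for miR-27a. normexp gave 0.069 for miR-30c, 0.17 for miR-218 and 0.084 for miR-25. The software's total signal and the deposited values centred per array both gave -0.62 for miR-20b, -0.051 for miR-93 and 2.20 for miR-25, and the latter gave -0.086 for miR-369-5p. The unscaled deposited values gave -0.33 for miR-152, -0.28 for miR-324-5p, -0.34 for miR-329, -0.72 for miR-98, -0.37 for miR-495, -1.40 for miR-20b, -0.58 for miR-369-5p, -0.022 for miR-107, -0.67 for miR-155, -0.12 for miR-199a-3p, -0.54 for miR-130b and -0.19 for let-7g. Among uncalled miRNAs they gave -0.83 for miR-93, -0.49 for miR-19b, -0.0078 for miR-18a, 1.42 for miR-25, -0.49 for miR-23a, -0.53 for miR-27a, -0.33 for miR-100 and -0.24 for miR-29b. Signal over background limits low miRNAs, since the lowest detected signal was 4.39% to 6.63% of the 75th percentile on the 3 low-signal arrays and at most 3.33% on the others.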
